A study of Mus musculus with 8 samples.

Results

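The response of wild-type (WT) mouse neutrophils to R848, a small-molecule agonist of Toll-like receptor 7 (TLR7), was examined in 4 of the 8 RNA-seq libraries of the series, 2 of unstimulated cells and 2 of cells given R848. Every gene of the count table entered the comparison, except the summary lines at its end: the table lists 24421 genes, and those counted in 2 or more of the 8 libraries, 12254 in number, were tested. The cells came from the bone marrow of 8-week-old female C57BL/6 mice and were isolated magnetically. The WT-Neu-R848-6h libraries are from cells held for 6 h with R848 at 1 µg/ml. The WT-Neu-Nostim-0h libraries are from cells without R848, for which the sample titles give 0 h and the study's methods give 6 h of incubation. If the titles hold, every change given here also contains the effect of 6 h in culture, and the 2 cannot be told apart. The other 4 libraries are from neutrophils of Padi4 KO mice, in which Padi4 is knocked out, under the same treatments, and they entered the fit to share its estimate of spread. The study states that each sample was analysed in duplicate and not whether duplicates came from separate mice, so the p-values measure the spread between these libraries, which may be technical.

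TLR7 sits in endosomes, where it senses single-stranded RNA, and imidazoquinolines such as R848 activate it directly. The receptor signals through the adaptor MyD88 and the IRAK kinases to NF-kB, the MAP kinases and interferon regulatory factors. Neutrophils leave the bone marrow with granule proteins already made, and activated neutrophils make cytokines, change their adhesion molecules and survive longer. Padi4 encodes a peptidylarginine deiminase that citrullinates histones and acts in the release of neutrophil extracellular traps (NETs).

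The 4 libraries held 562446 to 668857 counts on genes, which were 87.0% to 89.4% of the reads in the table. A number of 3 counts, the limit that a count of 0 allows, came to 4.49 to 5.33 CPM (counts of each library scaled to the same total) of the library total, a floor that accounts for counting error alone. Duplicates correlated with Pearson's r of 0.970 without stimulation and 0.965 after R848, computed over the 5704 genes averaging 10 counts or more, and libraries of different treatment with r between 0.743 and 0.755. Genes are not independent replicates, so these correlations describe the libraries. The scaling factors of edgeR (TMM) were 1.01 and 1.03 without stimulation and 0.804 and 0.845 after R848. The duplicates after R848 differed more, with a chi-square of 1.67 per degree of freedom against 1.13 for the unstimulated ones.

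The libraries carried the neutrophil label in their most abundant RNAs. Per kilobase of exon, S100a9 and S100a8, the subunits of calprotectin, had the highest and second highest level of all genes in both groups, followed by Ngp, a granule protein. The 11 neutrophil markers in the table summed to 160127 and 165758 CPM of the library total without stimulation. After R848 they summed to 151846 and 164296, and the ranges overlapped on that scale. Divided by the TMM factors given above, both R848 sums lie above both unstimulated ones. Ly6g, the marker used in sorting mouse neutrophils, was not analysed here.

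Markers of other bone marrow cells were low and their sums moved with the treatment. The sums are again of the library total. With TMM factors the R848 sums lie higher relative to the unstimulated ones, so the decreases given here are smaller on that scale. Megakaryocyte and platelet markers summed to 116 and 144 CPM without stimulation and 13.5 and 21.3 after R848. Erythroid markers summed to 146 and 168 CPM without stimulation and 34.4 and 62.3 after R848, with Hba-a1, Hba-a2, Hbb-bs and Hbb-bt, the adult globins, at 0 in all 4 libraries. Stem and progenitor markers, most of whose sum is Mpo, Elane and Prtn3, lay at 1294 and 1357 CPM without stimulation and 356 and 410 after R848. B cell markers summed to 90.5 and 112 CPM without stimulation and 42.6 and 56.8 after R848, with Pax5, Ebf1, Cr2, Vpreb1 and Vpreb3 at 0. Eosinophil, basophil and mast cell markers summed to 90.7 and 123 CPM without stimulation and 54.1 and 62.8 after R848, and stromal and endothelial markers to 270.2 and 325 CPM and to 181 and 202. T and NK cell markers were at 16.0 and 17.2 CPM without stimulation and at 2.99 and 6.56 after R848, with Cd3e and Cd8a at 0 throughout. Dendritic cell markers lay at 33.8 and 39.0 CPM without stimulation and at 50.8 and 75.4 after R848. The summed monocyte and macrophage markers were also higher after R848, with 2190 and 2226 CPM without stimulation and 3511 and 3635 after R848. That sum contains Adgre1, which encodes the F4/80 antigen and went from 26 and 22 counts to 1240 and 1332. Without Adgre1, the other 16 markers summed to 2150 and 2187 CPM without stimulation and 1478 and 1643 after R848. Csf1r, which is among these, went the other way, from 81 and 94 counts to 430 and 569. In bulk RNA, fewer cells of a type and less RNA per cell cannot be told apart, and the part of these cells in the gene changes given here was not tested.

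**Figure D1:**
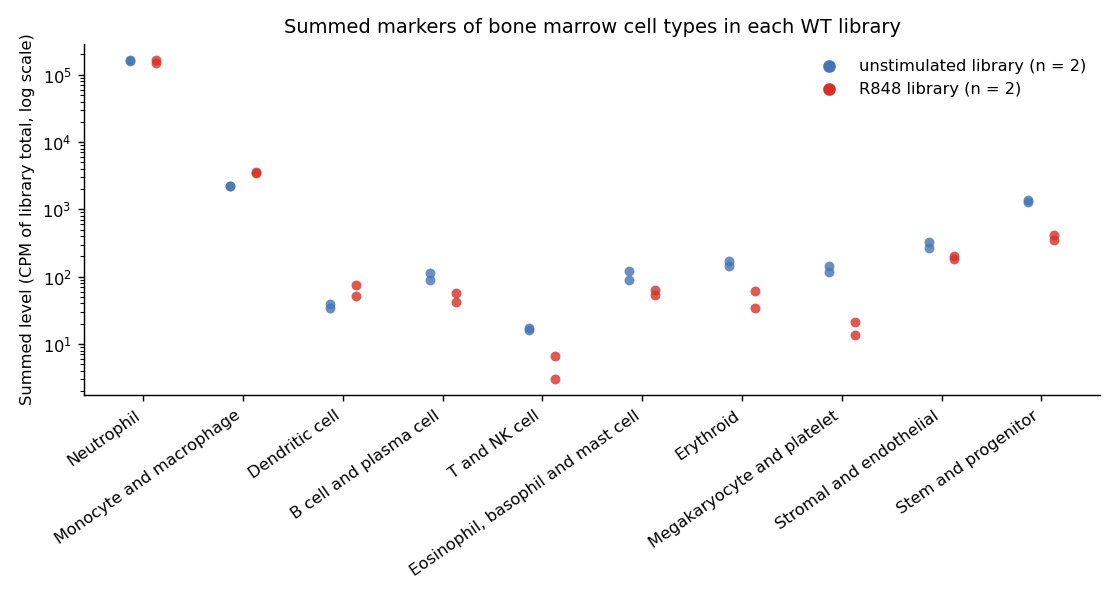
Summed level of 10 lists of cell type markers in each WT library, in CPM of the library total on a log axis, with 2 unstimulated libraries in blue and 2 R848 libraries in red. Neutrophil markers lie at 151846 CPM or above in all 4 libraries and their groups overlap on this scale. The sums of 7 other lists are lower and those of monocytes and dendritic cells higher after R848. With TMM factors, which are not used here, the neutrophil sums lie higher after R848.

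R848 was followed by wide changes in both directions. Of the 12254 genes tested, 879 (7.17%) were called higher and 1328 (10.8%) lower, by an adjusted p under 0.1 together with a change over 2-fold, so that 18.0% were called in either direction. Here and throughout, adjusted p-values were obtained with the quasi-likelihood test of edgeR and Benjamini and Hochberg's procedure over the whole set of tested genes, and "rose" and "fell" are written only of genes that met both limits. More genes fell than rose with each scaling in edgeR, with 965 higher and 1197 lower with RLE factors and 630 and 2106 with library size alone, whereas DESeq2 called 811 higher and 719 lower. The order also turned in edgeR without R848 replicate 1 (970 higher and 936 lower), without R848 replicate 2 (992 and 901), with every library thinned to the smallest (973 and 893) and in the test against the 2-fold limit (509 and 448). With library size alone, the median log2 fold change of all genes lay -0.30 from that with TMM factors, and changes below are given relative to the TMM scale. Of the genes named below, Prtn3, C5ar2, Ndufa8, Abcg1, Kif23, Tubb5, Mcm5, Pfkl and Rela met the limits but were not called by a test against the 2-fold limit itself. Of the 182 genes chosen by rule for naming, 172 were called, and the libraries of the 2 groups did not overlap for any of the 172. Over all genes tested, both R848 libraries lay above both unstimulated ones for 23.2% and below them for 31.3%. On the TMM scale the median log2 fold change was -0.17 over all genes tested, 0.00 when genes at 0 counts in 1 of the groups were placed at the bound their counts allow, and -0.01 over the 5704 genes with at least 10 counts on average.

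The balance of rises and falls differed with the count of the gene. Among genes with at least 10 counts on average over the 4 WT libraries, 680 (11.9%) rose and 745 (13.1%) fell. More than 8-fold, 125 of these rose and 42 fell, and more than 32-fold, 39 rose and 4 fell. Over all genes tested the order was the other way, with 213 rising and 260 falling more than 8-fold and 94 and 129 more than 32-fold, and these include genes at 0 in 1 group, whose fitted value depends on the prior count. The median log2 fold changes of the called genes were 1.82 and -1.82. The share of genes called higher was 1.34% under 3 counts and 29.2% at 300 counts or more. The share called lower was 17.4% between 3 and 30 counts and 6.34% at 300 counts or more. The genes called higher took 8.59% and 8.75% of all counts in the unstimulated libraries and 28.5% in each R848 library. The genes called lower took 12.6% and 12.8% without stimulation and 3.43% and 3.56% after R848.

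**Figure D2:**
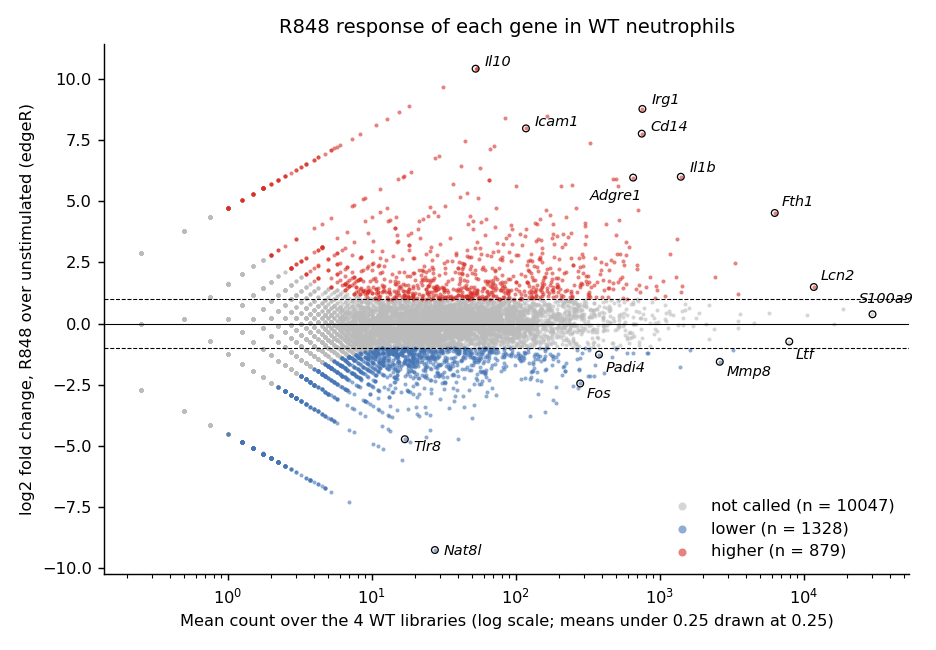
Mean count of each of the 12254 genes over the 4 WT libraries (log axis) against its log2 fold change, R848 over unstimulated, with genes called higher in red, called lower in blue and not called in grey, and dashed lines at 2-fold. Genes such as Il1b, Irg1 and Fth1 combine a large rise with a high count, and the curved lines of points at low counts are genes with 0 or a few counts in 1 group, whose fitted value depends on the prior count.

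**Figure D3:**
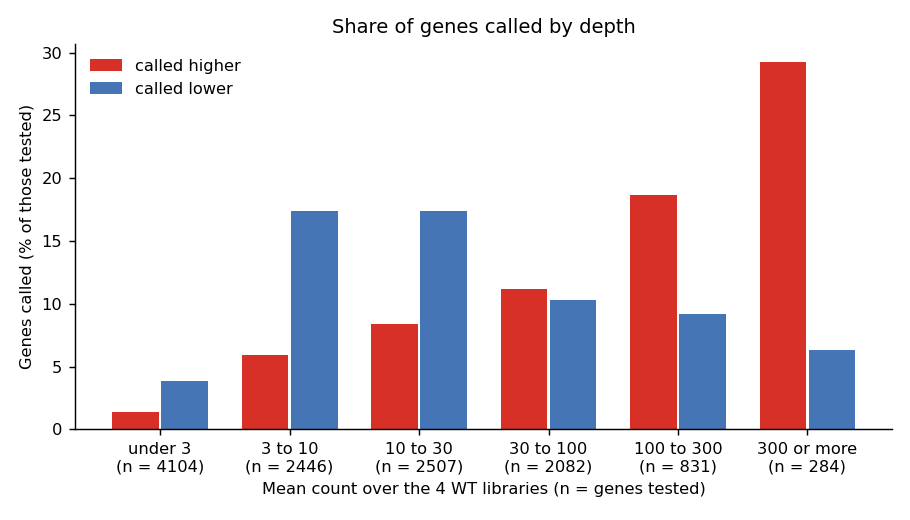
Percentage of the genes tested that were called higher (red) or lower (blue) after R848, by mean count over the 4 WT libraries, with bars from 0. The share called higher climbs to 29.2% in the 284 genes with 300 counts or more, and the share called lower is 17.4% at 3 to 10 and at 10 to 30 counts.

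The largest rises were in genes that unstimulated cells hardly expressed, and they covered signalling, cytokine, enzyme and transcription factor genes. Ralgds, an exchange factor for Ral GTPases, had 0 counts in both unstimulated libraries and 112 and 103 after R848, at least 83.2-fold higher. Il10, the anti-inflammatory cytokine, had 0 counts in both unstimulated libraries and 115 and 96 after R848, at least 81.7-fold higher. Lacc1, a laccase-domain enzyme of immune metabolism, had 0 counts in both unstimulated libraries and 75 and 50 after R848, at least 48.4-fold higher. All 3 were undetected without stimulation, where the group allows up to 3 counts. Irg1 (Acod1), the enzyme that makes itaconate from cis-aconitate, went from 4 and 4 counts to 1642 and 1387 after R848 (log2 fold change 8.76, SE 0.17). Dusp16, a phosphatase of MAP kinases, had 373 and 285 counts after R848 against 0 and 2 in unstimulated cells, a ratio of 382 (95% counting interval 105 to 3162). Such ratios are of counts divided by the scaled library sizes, and their intervals cover counting error only. Srxn1, the sulfiredoxin that repairs oxidised peroxiredoxins, had 188 and 148 counts after R848 against 1 and 0 in unstimulated cells, a ratio of 390.3 (95% counting interval 69.6 to 15461). Unstimulated libraries thus held at most 4 counts of each of these enzymes. The early response factor Egr3 had 0 counts in both unstimulated libraries and 39 and 34 after R848, at least 28.3-fold higher. Egr2, its relative, had 0 counts in both unstimulated libraries and 29 and 22 after R848, at least 19.7-fold higher. Ppm1n, a protein phosphatase, had 0 counts in both unstimulated libraries and 25 and 37 after R848, at least 24.0-fold higher. On GRCm38, with gene positions from GENCODE, Il10 spans chr1:131019845-131024974 on the plus strand, Irg1 chr14:103046977-103056573 on the plus strand and Ralgds chr2:28513125-28553081 on the plus strand. In all, 471 tested genes were at 0 in both unstimulated libraries and detected after R848, and 68 of these were called higher.

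By the amount of RNA, ferritin led the response. Fth1, the ferritin heavy chain that stores iron, had 11151 and 12839 counts after R848 against 620 and 599 in unstimulated cells, a log2 fold change of 4.51 (SE 0.07). Its level went from 996 ± 53.5 to 22729 ± 3.67 CPM (SD, n = 2), the largest gain in CPM of any gene. Lcn2, the siderophore-binding granule protein lipocalin-2, went from 7173 and 6592 counts to 15413 and 17919 after R848 (log2 fold change 1.49, SE 0.06). Ftl1, the ferritin light chain, had unstimulated counts of 1210 and 1116 and R848 counts of 4915 and 6135 (log2 fold change 2.46, SE 0.07). Per kilobase of exon, Fth1 moved from rank 117 of all genes to rank 8 and Ftl1 from rank 20 to rank 7. Il1b, the precursor of interleukin-1 beta, went from 54 and 47 counts to 2790 and 2723 after R848 (log2 fold change 5.99, SE 0.11). Its level went from 82.3 ± 1.65 to 5254 ± 612 CPM (SD, n = 2). Fth1 spans chr19:9980598-9985098 on the plus strand and Il1b chr2:129364570-129371139 on the minus strand, where the antisense gene Il1bos overlaps it. Both ferritin genes have processed pseudogenes, and reads could be split among the copies. S100a9 and S100a8 also gained CPM, with log2 fold changes of 0.38 and 0.59, under the 2-fold limit.

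The largest falls were in genes of low or moderate level. Nat8l, the enzyme that makes N-acetylaspartate, had 57 and 53 counts in the unstimulated libraries and 0 in both after R848, at least 31.6-fold lower. Hopx, a small homeodomain protein, had 34 and 30 counts without stimulation and 0 and 1 after R848, a ratio of 55.1 (95% counting interval 9.54 to 2210). Acot1, an acyl-CoA thioesterase, had 28 and 19 counts without stimulation and 1 and 0 after R848, a ratio of 40.5 (95% counting interval 6.92 to 1632). These counts leave little RNA of all 3 genes after R848. Fbxo31, an F-box protein of ubiquitin ligases, had 84 and 71 counts without stimulation and 1 and 4 after R848, a log2 fold change of -4.70 (SE 0.38). Ada, adenosine deaminase, had 27 and 25 counts without stimulation and 0 and 2 after R848, a ratio of 22.4 (95% counting interval 5.89 to 189.7). Sema4f, a semaphorin, had 36 and 36 counts without stimulation and 0 and 2 after R848, a ratio of 31.0 (95% counting interval 8.27 to 261). Ctnnbip1, an inhibitor of beta-catenin, had 24 and 19 counts without stimulation and 0 and 1 after R848, a ratio of 37.0 (95% counting interval 6.30 to 1496). Conversely, 1197 tested genes were detected without stimulation and at 0 in both R848 libraries, and 147 of these were called lower. Among these, Vwf, the von Willebrand factor of megakaryocytes and endothelium, had 13 and 6 counts in the unstimulated libraries and 0 in both after R848, at least 5.45-fold lower.

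**Figure D4:**
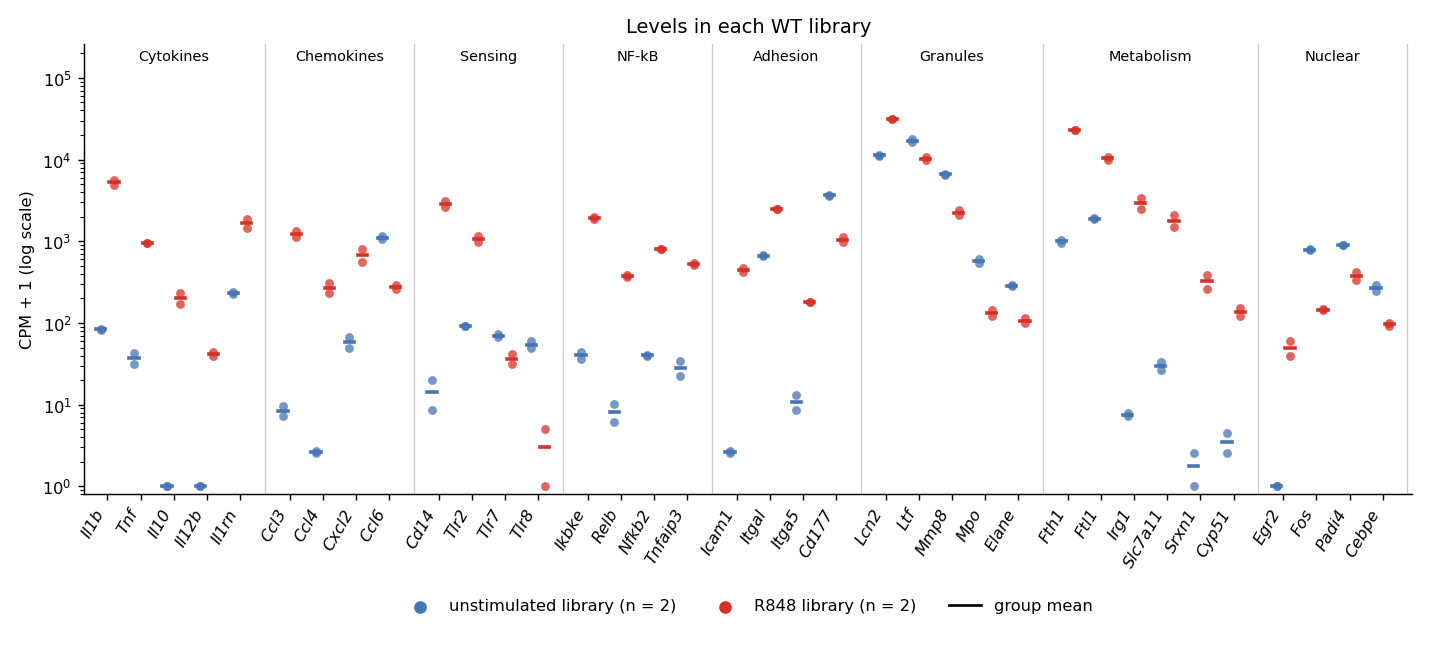
CPM + 1 (log axis, TMM scaled) of named genes in each WT library, with the unstimulated libraries in blue, the R848 libraries in red and a short line at each group mean; a point at 1 is a count of 0. For every gene drawn, the 2 red points lie wholly above or wholly below the 2 blue ones, and within a group the points differ by far less than between groups, except for genes with few counts such as Tlr8 and Srxn1.

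The receptor for R848 did not rise. Tlr7 went from 47 and 38 counts to 20 and 17 after R848 (log2 fold change -0.98, SE 0.28), with an adjusted p of 0.00301 by edgeR (Benjamini-Hochberg) and a change just under 2-fold. Without unstimulated replicate 2 or without R848 replicate 1 it was past the limit, at -1.05 and -1.06, and without R848 replicate 2 it was -0.66. Its neighbour on the X chromosome, Tlr8, also a sensor of RNA, had 38 and 28 counts without stimulation and 2 and 0 after R848, a ratio of 28.4 (95% counting interval 7.56 to 239). In the list of TLR7 sensing and MyD88 signalling, 10 of 32 genes tested rose and 2 fell, with a median log2 fold change of 0.66, beside 7.17% and 10.8% and a median of -0.17 over all genes tested. The risers named below include receptors, IRAK family members and an adaptor. Cd14, a co-receptor that hands ligands to TLRs, had 1517 and 1473 counts after R848 against 5 and 11 in unstimulated cells, a log2 fold change of 7.75 (SE 0.15). Tlr2, the receptor for bacterial lipopeptides, went from 58 and 52 counts to 577 and 552 after R848 (log2 fold change 3.58, SE 0.13). Irak3, which restrains TLR signalling, had unstimulated counts of 58 and 53 and R848 counts of 761 and 822 (log2 fold change 4.05, SE 0.12). Irak2, a kinase of the same complex, went from 25 and 30 counts to 265 and 256 after R848 (log2 fold change 3.46, SE 0.17). Tlr9, the sensor of CpG DNA, had 20 and 29 counts after R848 against 1 and 1 in unstimulated cells, a ratio of 28.5 (95% counting interval 7.47 to 242). Myd88 itself had a log2 fold change of 0.86 (SE 0.14), Irak4 of 0.31 (SE 0.21) and Traf6 of 0.51 (SE 0.27), all under the 2-fold limit. Pik3ap1 (BCAP), an adaptor that links TLRs to PI3 kinase, rose, with 63 and 37 counts without stimulation and 338 and 406 after R848, a log2 fold change of 3.11 (SE 0.14).

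The NF-kB list had the highest share of rising members among the 30 pathway lists examined. The lists were written by hand with earlier results of these data known, so this order is a description. Of 29 genes tested, 23 rose (79.3%, against 7.17% of all genes tested) and 0 fell, with a median log2 fold change of 2.28. DESeq2 also called 23 and 0, and library size alone 21 and 0. The list holds the subunits, the inhibitors that NF-kB itself induces, and the kinases above them. Among the subunits, Relb, of the non-canonical pathway, had 187 and 205 counts after R848 against 6 and 3 in unstimulated cells, a log2 fold change of 5.63 (SE 0.26). Nfkb2, which encodes its partner p100, went from 25 and 23 counts to 400 and 449 after R848 (log2 fold change 4.36, SE 0.16). Nfkb1, Rel and Rela had smaller log2 fold changes of 1.77, 1.97 and 1.22. Among the inhibitors and feedback genes, Tnfaip3, the ubiquitin-editing enzyme A20, had unstimulated counts of 14 and 19 and R848 counts of 265 and 291 (log2 fold change 4.28, SE 0.18). Nfkbia, which encodes IkB alpha, went from 168 and 150 counts to 560 and 701 after R848 (log2 fold change 2.20, SE 0.10). Tnip1, a partner of A20, had 48 and 29 counts without stimulation and 484 and 649 after R848, a log2 fold change of 4.09 (SE 0.13). The feedback genes thus rose together with the subunits they restrain. Ikbke, an IkB-related kinase, went from 23 and 25 counts to 960 and 1063 after R848 (log2 fold change 5.61, SE 0.13), the steepest of the kinases, whereas the kinases of the classical complex, Ikbkb and Chuk, had log2 fold changes of 0.04 and -0.06. The 6 members that were not called were Tnip2, Cyld, Chuk, Ikbkb, Birc2 and Map3k14, with log2 fold changes from -0.06 to 0.20.

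The promoters of these genes were searched for the kB element, the DNA sequence that NF-kB dimers bind. Promoter sequences were those of RefSeq for GRCm38.p6, and 9892 of the 12254 genes tested (80.7%) had one. The letters GGGNNTTTCC were searched on both strands of the 250 bases before each start site. They occurred in 30 of 698 promoters of genes that rose (4.30%), in 12 of 1094 of genes that fell (1.10%), in 1.25% of those not called and in 1.40% of all 27025 mouse promoters. A match is a run of letters and no evidence of binding. The sites below are shown because they lie before the RefSeq start sites of NF-kB genes and inflammatory genes of the response. Each line runs 5′ to 3′ along the strand of the gene, with the kB letters in capitals and up to 10 flanking bases on each side.
Nfkb2: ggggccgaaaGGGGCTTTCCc
Tnfaip3: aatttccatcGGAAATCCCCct
Nfkbia: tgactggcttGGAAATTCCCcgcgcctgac
Rel: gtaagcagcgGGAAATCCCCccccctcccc
Cxcl2: cctggtccccGGGCTTTTCCagacatcgtg
Csf1: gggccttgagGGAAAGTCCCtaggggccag
Dusp5: cagggggcggGGAAATACCCatatttggcc
The Nfkb2 site lies at chr19:46304716-46304736 (plus strand), the Tnfaip3 site at chr10:19015411-19015432 (minus strand), the Nfkbia site at chr12:55492657-55492686 (minus strand) and the Rel site at chr11:23771041-23771070 (minus strand). The Cxcl2 site, 1 of 2 matches, lies at chr5:90903811-90903840 (plus strand), the Csf1 site at chr3:107760604-107760633 (minus strand) and the Dusp5 site at chr19:53529045-53529074 (plus strand). The first capital is 11 bases before the start site in Nfkb2, 12 in Tnfaip3, 29 in Nfkbia, 91 in Rel, 78 in Cxcl2, 154 in Csf1 and 90 in Dusp5. These are the start sites of RefSeq, and the GENCODE spans of Nfkb2 and Tnfaip3 begin further upstream, so that both sites lie inside those genes. In Tnfaip3, Nfkbia, Rel, Csf1 and Dusp5 the element reads on the opposite strand, so the capitals begin with GGAAA. The AP-1 letters TGANTCA stood in 6.59% of promoters of genes that rose, 4.39% of those that fell, 4.54% of those not called and 6.87% of all promoters. The interferon-response letters GAAANNGAAA stood in 4.15%, 2.65%, 2.67% and 3.04% in the same order. The cyclic AMP response element TGACGTCA stood in 2.44%, 1.46%, 2.99% and 1.62%, and the antioxidant response core TGACNNNGC in 12.2%, 11.6%, 12.4% and 10.1%. Elements were counted separately, so the same bases could count for more than 1.

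Some immediate early genes and MAP kinase regulators rose and fewer fell. Of 38 genes tested, 12 rose and 3 fell (31.6% and 7.89%, against 7.17% and 10.8% of all genes tested). The share that fell was below that of all genes. Dusp5, a phosphatase that switches ERK off, had 47 and 57 counts after R848 against 4 and 1 in unstimulated cells, a log2 fold change of 4.55 (SE 0.42). Mapkapk2, a kinase activated by p38, went from 154 and 138 counts to 1041 and 1118 after R848 (log2 fold change 3.10, SE 0.10). Map3k8 (Tpl2), the kinase that links NF-kB p105 to ERK, had unstimulated counts of 9 and 11 and R848 counts of 140 and 129 (log2 fold change 3.96, SE 0.24). Against these, Fos went from 499 and 471 counts to 73 and 80 after R848 (log2 fold change -2.45, SE 0.12). Dusp1, which switches off p38 and JNK, had 466 and 426 counts without stimulation and 102 and 112 after R848, a log2 fold change of -1.84 (SE 0.12). Fos and Dusp1 are known as early and short-lived transcripts, and Egr1, of the same class, rose, with 86 and 81 counts after R848 against 18 and 11 in unstimulated cells, a log2 fold change of 2.74 (SE 0.25). Mapk14, which encodes p38 alpha, was under the 2-fold limit, with a log2 fold change of 0.36.

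Cytokine genes gave some of the largest rises. Of 24 genes tested, 13 rose and 3 fell (54.2% and 12.5%, against 7.17% and 10.8% of all genes tested). The share that fell was near that of all genes. The median log2 fold change was 2.37, or 1.61 with genes at 0 in 1 of the groups placed at their bound. Among inflammatory cytokines, Tnf went from 20 and 24 counts to 466 and 536 after R848 (log2 fold change 4.72, SE 0.15). Il12b, the p40 chain of interleukin-12 and interleukin-23, had 0 counts in both unstimulated libraries and 21 and 22 after R848, at least 16.6-fold higher. Il12a, the p35 chain of interleukin-12, had 0 counts in both unstimulated libraries and 12 and 11 after R848, at least 8.91-fold higher. The genes of both chains of interleukin-12 were therefore detected only after R848 in these WT libraries. Among brakes on inflammation, Il10 is given above, and Il1rn, the interleukin-1 receptor antagonist, had unstimulated counts of 154 and 129 and R848 counts of 923 and 819 (log2 fold change 2.85, SE 0.10). Il1f9 (Il36g), an interleukin-1 family cytokine, went from 188 and 177 counts to 965 and 882 after R848 (log2 fold change 2.56, SE 0.09). Csf1, the growth factor of macrophages, had 14 and 15 counts without stimulation and 75 and 66 after R848, a log2 fold change of 2.49 (SE 0.26). The 3 genes that fell act on lymphocytes. Tnfsf14 (LIGHT) went from 54 and 55 counts to 4 and 7 after R848 (log2 fold change -3.08, SE 0.35). Tnfsf13b (BAFF), a survival factor of B cells, had 14 and 5 counts after R848 against 50 and 47 in unstimulated cells, a log2 fold change of -2.13 (SE 0.32). Il15, which sustains T and NK cells, went from 19 and 21 counts to 4 and 0 after R848 (log2 fold change -3.06, SE 0.59). Il6 had 0 counts without stimulation and 1 and 2 after R848, too few for a call at this depth.

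Among chemokines, ligands that draw monocytes, T cells and neutrophils rose. Of 16 ligands tested, 7 rose and 2 fell (43.8% and 12.5%, against 7.17% and 10.8% of all genes tested). The share that fell was near that of all genes. Ccl3, a ligand of CCR1, had unstimulated counts of 4 and 5 and R848 counts of 658 and 640 (log2 fold change 7.36, SE 0.20). Ccl4, which attracts monocytes and T cells, had 151 and 130 counts after R848 against 1 and 1 in unstimulated cells, a ratio of 163 (95% counting interval 44.8 to 1354). Cxcl10, the interferon-inducible ligand of CXCR3, had 47 and 62 counts after R848 against 1 and 0 in unstimulated cells, a ratio of 127 (95% counting interval 22.3 to 5046). Cxcl2, a ligand of CXCR2 on neutrophils themselves, went from 31 and 38 counts to 397 and 313 after R848 (log2 fold change 3.58, SE 0.15). The rises thus spanned ligands of CCR1, CXCR3 and CXCR2. In contrast, Ccl6, a chemokine of mouse myeloid cells, had 698 and 663 counts without stimulation and 141 and 146 after R848, a log2 fold change of -2.03 (SE 0.10). Ppbp, a platelet chemokine that is also in the megakaryocyte list, had 27 and 22 counts without stimulation and 1 and 2 after R848, a ratio of 14.1 (95% counting interval 4.54 to 70.5).

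Many receptors for chemoattractants rose. Of 24 tested, 10 rose and 3 fell (41.7% and 12.5%, against 7.17% and 10.8% of all genes tested). The share that fell was near that of all genes. The formyl peptide receptors, which sense bacterial peptides, were among those that rose. Fpr1 went from 255 and 254 counts to 2376 and 2428 after R848 (log2 fold change 3.46, SE 0.08). Fpr2 had 1133 and 1160 counts after R848 against 496 and 452 in unstimulated cells, a log2 fold change of 1.49 (SE 0.08). Ccrl2, a non-signalling receptor for chemerin, went from 5 and 2 counts to 104 and 109 after R848 (log2 fold change 5.11, SE 0.32). Ptafr, the receptor for platelet-activating factor, had unstimulated counts of 48 and 33 and R848 counts of 181 and 225 (log2 fold change 2.54, SE 0.16). C3ar1, the receptor for the complement fragment C3a, had 0 counts in both unstimulated libraries and 20 and 13 after R848, at least 12.8-fold higher. C5ar2, the second receptor for C5a, fell, with 39 and 34 counts without stimulation and 12 and 12 after R848, a log2 fold change of -1.38 (SE 0.32). The chemokine receptors that govern release from and retention in bone marrow, Cxcr2 and Cxcr4, had log2 fold changes of -0.49 and -0.83 and stayed under the 2-fold limit.

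Adhesion genes moved in opposite directions, with 9 of 32 rising and 7 falling (28.1% and 21.9%, against 7.17% and 10.8% of all genes tested). The sign of their median depended on the scaling (0.15 with TMM factors and -0.16 with library size alone). Icam1, the ligand of beta2 integrins, had 208 and 262 counts after R848 against 1 and 1 in unstimulated cells, a ratio of 273 (95% counting interval 75.1 to 2261). Itgal, the alpha chain of LFA-1, went from 425 and 393 counts to 1210 and 1400 after R848 (log2 fold change 1.89, SE 0.08). Itga5, the alpha chain of the fibronectin receptor, had 89 and 102 counts after R848 against 5 and 7 in unstimulated cells, a log2 fold change of 4.19 (SE 0.29). The genes of LFA-1's alpha chain and of its ligand thus both rose, while Itgb2 and Itgam, the chains of Mac-1, had log2 fold changes of 0.22 and -0.12. Cd177, a neutrophil surface protein, went from 2396 and 2072 counts to 476 and 637 after R848 (log2 fold change -1.79, SE 0.08). Itga4, the alpha chain of VLA-4, had unstimulated counts of 64 and 49 and R848 counts of 16 and 16 (log2 fold change -1.60, SE 0.27). Adam17, a protease that sheds cell surface proteins, rose, with 41 and 39 counts without stimulation and 207 and 214 after R848, a log2 fold change of 2.61 (SE 0.16).

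Granule genes went in both directions. Azurophil granule proteins are made in promyelocytes, specific and gelatinase granule proteins later. Of 12 azurophil genes tested, 2 rose and 4 fell (16.7% and 33.3%). Over all genes tested, 7.17% rose and 10.8% fell. Over genes averaging 10 counts or more, as 10 of the 12 did, the shares were 11.9% and 13.1%. Mpo, myeloperoxidase, went from 387 and 316 counts to 60 and 80 after R848 (log2 fold change -2.11, SE 0.13). Elane, neutrophil elastase, had 48 and 64 counts after R848 against 186 and 162 in unstimulated cells, a log2 fold change of -1.42 (SE 0.16). Prtn3, proteinase 3, went from 163 and 153 counts to 49 and 64 after R848 (log2 fold change -1.27, SE 0.16). These 3 genes also make up most of the summed stem and progenitor markers given above, so fewer immature cells and less RNA per cell cannot be told apart here. Srgn, the proteoglycan that packs granule proteins, rose, with unstimulated counts of 299 and 245 and R848 counts of 742 and 774 (log2 fold change 1.70, SE 0.09). Of 27 specific and gelatinase granule genes, 4 rose and 6 fell (14.8% and 22.2%), and the share that rose was near that of all genes averaging 10 counts or more. Mmp8, the neutrophil collagenase, had 4227 and 3881 counts without stimulation and 1182 and 1176 after R848, a log2 fold change of -1.56 (SE 0.07). Lrg1, a secreted glycoprotein, went from 347 and 323 counts to 43 and 53 after R848 (log2 fold change -2.59, SE 0.14). Lcn2 rose as given above, and Chil1, a chitinase-like protein, had 1286 and 1392 counts after R848 against 586 and 497 in unstimulated cells, a log2 fold change of 1.53 (SE 0.08). Ltf, lactoferrin, lost the most CPM of all genes, from 17086 ± 859 to 10261 ± 549 CPM (SD, n = 2), with a log2 fold change of -0.74 that was under the 2-fold limit (-1.04 and called with library size alone). Ngp, Chil3 and Mmp9 had log2 fold changes of -0.03, 0.01 and -0.19. Abundant RNAs of the same granule classes thus rose, fell or stayed under the limit.

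Many surface receptors of neutrophils rose. Of 32 genes in the list of S100 proteins and neutrophil surface markers, 16 rose and 1 fell, with a median log2 fold change of 0.95. Clec4d and Clec4e (Mincle) are partner lectins that recognise fungal and mycobacterial glycolipids. Clec4d went from 174 and 159 counts to 1098 and 903 after R848 (log2 fold change 2.81, SE 0.10). Clec4e had 145 and 123 counts in the unstimulated libraries and 705 and 596 after R848. Siglece, an inhibitory receptor for sialic acids, had unstimulated counts of 153 and 142 and R848 counts of 702 and 853 (log2 fold change 2.61, SE 0.10). Pilra, another inhibitory receptor, went from 158 and 168 counts to 763 and 840 after R848 (log2 fold change 2.51, SE 0.10). Activating and inhibitory receptors therefore both rose. The exception was Il1r2, the decoy receptor for interleukin-1, which had 239 and 222 counts without stimulation and 60 and 41 after R848, a log2 fold change of -1.97 (SE 0.15). Csf3r and Csf2rb, receptors for the growth factors of neutrophils, had log2 fold changes of -0.17 and 0.32. Among cytokine receptors and their signalling genes, 14 of 34 rose and 1 fell (41.2% and 2.94%). Tnfrsf1b, the second receptor for TNF, went from 67 and 55 counts to 882 and 1100 after R848 (log2 fold change 4.23, SE 0.11). Il10ra, the ligand-binding chain of the interleukin-10 receptor, had 197 and 240 counts after R848 against 21 and 14 in unstimulated cells, a log2 fold change of 3.85 (SE 0.19). Csf1r, the receptor for Csf1 and a marker of monocytes, went from 81 and 94 counts to 430 and 569 after R848 (log2 fold change 2.72, SE 0.12). Pim2, a survival kinase, had 113 and 152 counts after R848 against 2 and 0 in unstimulated cells, a ratio of 154 (95% counting interval 42.2 to 1277).

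Many antioxidant genes rose, whereas the subunits of the oxidase that makes superoxide stayed under the 2-fold limit. Of 27 genes tested, 14 rose and 1 fell (51.9% and 3.70%, against 7.17% and 10.8% of all genes tested). The median log2 fold change was 1.43. Slc7a11, the cystine importer that feeds glutathione synthesis, had unstimulated counts of 21 and 15 and R848 counts of 1024 and 844 (log2 fold change 5.92, SE 0.14). Sod2, the mitochondrial superoxide dismutase, went from 20 and 18 counts to 933 and 1022 after R848 (log2 fold change 5.90, SE 0.14). Sqstm1, the autophagy adaptor p62, had 88 and 84 counts without stimulation and 852 and 953 after R848, a log2 fold change of 3.61 (SE 0.11). Txnrd1, thioredoxin reductase, went from 53 and 43 counts to 368 and 419 after R848 (log2 fold change 3.25, SE 0.14). Nfe2l2, which encodes the transcription factor Nrf2, had 386 and 430 counts after R848 against 104 and 76 in unstimulated cells, a log2 fold change of 2.40 (SE 0.12). The 2 subunits of glutamate-cysteine ligase both rose, with log2 fold changes of 3.35 for Gclc and 3.67 for Gclm. The oxidase genes Cybb, Cyba, Ncf1 and Ncf4 had log2 fold changes between 0.52 and 0.91. Hvcn1, the proton channel that supports the oxidase, fell, with unstimulated counts of 65 and 59 and R848 counts of 18 and 15 (log2 fold change -1.69, SE 0.26). Of 19 iron genes, 8 rose and 1 fell (42.1% and 5.26%). Slc11a1 (Nramp1), the phagosomal metal transporter, went from 133 and 88 counts to 546 and 660 after R848 (log2 fold change 2.66, SE 0.11). Hmox1, which releases iron from heme, had 45 and 47 counts without stimulation and 215 and 280 after R848, a log2 fold change of 2.64 (SE 0.15). Ncoa4, which delivers ferritin to lysosomes, fell, with 42 and 56 counts after R848 against 213 and 221 in unstimulated cells, a log2 fold change of -1.93 (SE 0.16), while the 2 ferritin genes rose.

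Many cholesterol and lipid genes rose. Of 29 tested, 14 rose and 1 fell (48.3% and 3.45%, against 7.17% and 10.8% of all genes tested). The median log2 fold change was 1.13, and DESeq2 gave the same counts. Genes of synthesis were not counted apart. Cyp51, lanosterol demethylase, had 75 and 68 counts after R848 against 1 and 2 in unstimulated cells, a ratio of 55.4 (95% counting interval 18.6 to 272). Hmgcs1, HMG-CoA synthase, went from 12 and 23 counts to 132 and 159 after R848 (log2 fold change 3.26, SE 0.21). Srebf2, the factor that drives cholesterol synthesis, had unstimulated counts of 106 and 105 and R848 counts of 245 and 314 (log2 fold change 1.62, SE 0.12). Export genes diverged, with Abca1 rising at a log2 fold change of 4.27 and Abcg1 falling at -1.61. The called synthesis genes and the regulator thus went the same way, and Mvk, Mvd, Lss and Dhcr7 of the same pathway were not called.

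Prostaglandin and leukotriene genes moved in opposite ways. Of 17 tested, 5 rose and 3 fell (29.4% and 17.6%, against 7.17% and 10.8% of all genes tested). Their median of 0.07 turned to -0.23 with library size alone. Ptgs2, the inducible cyclooxygenase, went from 8 and 9 counts to 33 and 28 after R848 (log2 fold change 2.05, SE 0.37). Ptges, the inducible prostaglandin E synthase, had 10 and 12 counts without stimulation and 60 and 51 after R848, a log2 fold change of 2.54 (SE 0.29). Pla2g7, which degrades platelet-activating factor, went from 119 and 127 counts to 1062 and 1039 after R848 (log2 fold change 3.31, SE 0.10). Alox5, the 5-lipoxygenase of leukotriene synthesis, fell, with 103 and 154 counts after R848 against 444 and 365 in unstimulated cells, a log2 fold change of -1.44 (SE 0.11). Ptgs1, the constitutive cyclooxygenase, fell, with unstimulated counts of 58 and 54 and R848 counts of 16 and 11 (log2 fold change -1.83, SE 0.28). In glucose metabolism, 7 of 29 genes rose and 6 fell (24.1% and 20.7%, against the same shares of all genes). Hif1a, the hypoxia-inducible factor, had 42 and 29 counts without stimulation and 221 and 216 after R848, a log2 fold change of 2.84 (SE 0.16). Slc16a3, the lactate exporter, went from 207 and 184 counts to 559 and 528 after R848 (log2 fold change 1.70, SE 0.10). Among glycolytic enzymes, Hk3, a hexokinase, had 153 and 150 counts after R848 against 604 and 525 in unstimulated cells, a log2 fold change of -1.68 (SE 0.10). Gpi1, which acts on the product of hexokinase, went from 1266 and 1126 counts to 401 and 491 after R848 (log2 fold change -1.21, SE 0.08). Pfkl, the liver-type phosphofructokinase, rose, with a log2 fold change of 1.35. Ldha, Gapdh, Pgk1 and Pkm had log2 fold changes of -0.96, -0.29, -0.28 and -0.06, under the 2-fold limit.

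Interferon-stimulated genes responded in part. Of 39 tested, 12 rose (30.8%, against 7.17% of all genes tested) and 0 fell. The median log2 fold change was 0.80 (0.49 with library size alone, which also called 1 gene lower). Rsad2 (viperin), an antiviral enzyme, had unstimulated counts of 78 and 71 and R848 counts of 262 and 218 (log2 fold change 1.91, SE 0.14). Ifi204, a nuclear DNA-binding protein, went from 47 and 43 counts to 124 and 107 after R848 (log2 fold change 1.58, SE 0.18). Oasl1, of the oligoadenylate synthetase family, had 22 and 20 counts without stimulation and 59 and 84 after R848, a log2 fold change of 1.98 (SE 0.24). Oas2, Oasl2 and Ifitm3 were detected at log2 fold changes of 0.04, -0.12 and 0.36 and were not called. The rises that were called lay between 1.02 and 3.11 on the log2 scale. In the list of costimulatory and checkpoint genes, 7 of 19 rose (36.8%) and 0 fell. Cd274, which encodes PD-L1, went from 3 and 2 counts to 74 and 86 after R848 (log2 fold change 5.17, SE 0.37). Cd69, an activation antigen, had 20 and 31 counts after R848 against 1 and 2 in unstimulated cells, a ratio of 19.7 (95% counting interval 6.39 to 98.9). Of 30 genes of MHC class I and the proteasome, 4 rose and 2 fell (13.3% and 6.67%). Over all genes tested, 7.17% rose and 10.8% fell. Over genes averaging 10 counts or more, as 29 of the 30 did, the shares were 11.9% and 13.1%. B2m, the invariant light chain of class I, had 1230 and 1448 counts after R848 against 569 and 615 in unstimulated cells, a log2 fold change of 1.39 (SE 0.08). Psmb9, an immunoproteasome subunit, fell, with unstimulated counts of 48 and 34 and R848 counts of 7 and 13 (log2 fold change -1.81, SE 0.33).

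Genes of survival and of death both rose. Of 37 genes tested, 13 rose and 3 fell (35.1% and 8.11%, against 7.17% and 10.8% of all genes tested). The share that fell was below that of all genes. Bcl2a1b, a survival member of the Bcl-2 family, went from 3 and 2 counts to 87 and 93 after R848 (log2 fold change 5.34, SE 0.36); its near-identical copies Bcl2a1a and Bcl2a1d rose too, and reads cannot be assigned among them with certainty. Cflar, which blocks caspase-8, had 76 and 68 counts without stimulation and 251 and 260 after R848, a log2 fold change of 2.04 (SE 0.14). Bcl2l11 (Bim), which promotes death, went from 7 and 8 counts to 94 and 94 after R848 (log2 fold change 3.85, SE 0.28). Fas, the death receptor, had 246 and 253 counts after R848 against 29 and 27 in unstimulated cells, a log2 fold change of 3.37 (SE 0.17). Nlrp3, the inflammasome sensor, went from 83 and 50 counts to 243 and 287 after R848 (log2 fold change 2.21, SE 0.14). Casp4 (caspase-11), the sensor of cytosolic LPS, rose by 2.52 on the log2 scale, whereas Casp1 had -0.05. Mcl1, on which neutrophil survival depends, had unstimulated counts of 583 and 437 and R848 counts of 722 and 784 (log2 fold change 0.78, SE 0.08), under the 2-fold limit. In the stress response lists, 7 of 29 genes of the unfolded protein and integrated stress response rose and 1 fell (24.1% and 3.45%). Of 19 heat shock genes, 1 rose and 1 fell (5.26% each, and 0 and 0 by DESeq2). Over all genes tested the shares were 7.17% and 10.8%. Atf4, the factor of the integrated stress response, went from 108 and 88 counts to 213 and 203 after R848 (log2 fold change 1.30, SE 0.13), and was just under the limit with library size alone (0.999). Slc3a2, the partner of the cystine importer, had 24 and 23 counts without stimulation and 324 and 354 after R848, a log2 fold change of 4.06 (SE 0.16). Hspa5 (BiP) had a log2 fold change of 0.49. The medians of these 2 lists were 0.28 and 0.33, and with library size alone the first turned to -0.02 and the second was 0.03.

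Transcription factors of granulopoiesis moved in both directions. Of 29 tested, 6 rose and 7 fell (20.7% and 24.1%), and DESeq2 called 6 and 4. Over all genes tested, 7.17% rose and 10.8% fell. Over genes averaging 10 counts or more, as 24 of the 29 did, the shares were 11.9% and 13.1%. Cebpb, the C/EBP factor of emergency granulopoiesis, went from 238 and 218 counts to 536 and 788 after R848 (log2 fold change 1.75, SE 0.09). Bhlhe40, a basic helix-loop-helix repressor, had 174 and 173 counts after R848 against 11 and 14 in unstimulated cells, a log2 fold change of 4.00 (SE 0.22). Ets2, a factor of the ETS family, went from 39 and 45 counts to 406 and 432 after R848 (log2 fold change 3.53, SE 0.14). Cebpe, the C/EBP factor of granule formation, fell, with unstimulated counts of 157 and 170 and R848 counts of 49 and 52 (log2 fold change -1.48, SE 0.16). Klf13, a Krüppel-like factor, fell, with 307 and 301 counts without stimulation and 87 and 96 after R848, a log2 fold change of -1.52 (SE 0.13). Of 22 genes that bind RNA or promote its decay, 2 rose and 3 fell (9.09% and 13.6%), near the 7.17% and 10.8% of all genes tested. Zfp36l1, which binds AU-rich elements in mRNA, rose, with 123 and 156 counts after R848 against 6 and 6 in unstimulated cells, a log2 fold change of 4.73 (SE 0.27). Zfp36l2, its paralogue, fell, with unstimulated counts of 385 and 329 and R848 counts of 65 and 96 (log2 fold change -1.93, SE 0.13). Zfp36 itself, tristetraprolin, had a log2 fold change of -0.26 and was not called.

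Some cell cycle genes, the MCM subunits among them, and Padi4 itself fell. Of 50 cell cycle genes tested, 0 rose and 15 fell, with a median log2 fold change of -0.63, and DESeq2 called 0 and 14. The 6 subunits of the MCM helicase, which opens replication origins, made up 6 of the 15. Mcm6 had 46 and 57 counts without stimulation and 7 and 14 after R848, a log2 fold change of -2.07 (SE 0.31). The log2 fold changes of Mcm3, Mcm4, Mcm5 and Mcm7 were -1.77, -1.98, -1.36 and -1.65. Stmn1 (stathmin), which destabilises microtubules, went from 74 and 86 counts to 22 and 21 after R848 (log2 fold change -1.68, SE 0.23). Kif23, a kinesin of cell division, fell, with 13 and 18 counts after R848 against 57 and 44 in unstimulated cells, a log2 fold change of -1.48 (SE 0.28). Tubb5, a beta tubulin, fell, with unstimulated counts of 211 and 185 and R848 counts of 57 and 89 (log2 fold change -1.22, SE 0.14). The markers of dividing cells Mki67, Cdk1, Plk1 and Ccnb1 were not called, with log2 fold changes of -0.29, 0.06, -0.01 and 0.19. The summed stem and progenitor markers, given above, were also lower after R848, and the part of those cells in these falls was not tested. Of 14 peptidylarginine deiminase and NET-linked nuclear genes, 0 rose and 6 fell (42.9%, against 10.8% of all genes tested), with a median of -1.27. Padi4, on the minus strand of chromosome 4 of GRCm38 (140745865 to 140774236 in GENCODE), had 590 and 527 counts without stimulation and 166 and 234 after R848, a log2 fold change of -1.27 (SE 0.10), with an adjusted p of 2.84e-34 by edgeR (Benjamini-Hochberg). Without the library R848 replicate 1 the log2 fold change of Padi4 was -0.999, just under the limit. Mpo, Elane and Prtn3 are members of this list as well. Hmgb2 and Lmnb1 had log2 fold changes of -0.81 and 0.74. Of 49 histone genes tested, 1 rose and 3 fell (2.04% and 6.12%, below the 7.17% and 10.8% of all genes tested), and DESeq2 called 1 and 1. They are clustered near-identical copies, 27 of the 49 were at 0 in 1 of the WT groups, and their values are uncertain.

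Ribosomal protein genes did not change past the limits. Of 56 tested, 0 rose and 0 fell (DESeq2 0 and 0, library size alone 0 and 5), with a median log2 fold change of -0.29, and 27 of them lay lower at an adjusted p under 0.1 by edgeR but by less than 2-fold. Ribosome biogenesis had 2 of 36 genes higher and 4 lower, and library size alone called 1 and 9. These shares (5.56% and 11.1%) were near those of all genes tested (7.17% and 10.8%). Of 71 nuclear genes of oxidative phosphorylation, 1 rose and 7 fell, with a median of -0.45. DESeq2 called 1 and 4 and library size alone 0 and 19, and the share that fell (9.86%) was near that of all genes. Ndufa8, of complex I, went from 42 and 27 counts to 8 and 12 after R848 (log2 fold change -1.56, SE 0.34). Rn45s, the ribosomal RNA precursor, lost CPM, from 4592 ± 175 to 2995 ± 943 CPM (SD, n = 2), with an adjusted p of 0.212 by edgeR (Benjamini-Hochberg). Its spread after R848 was wide, and it was not called.

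**Figure D5:**
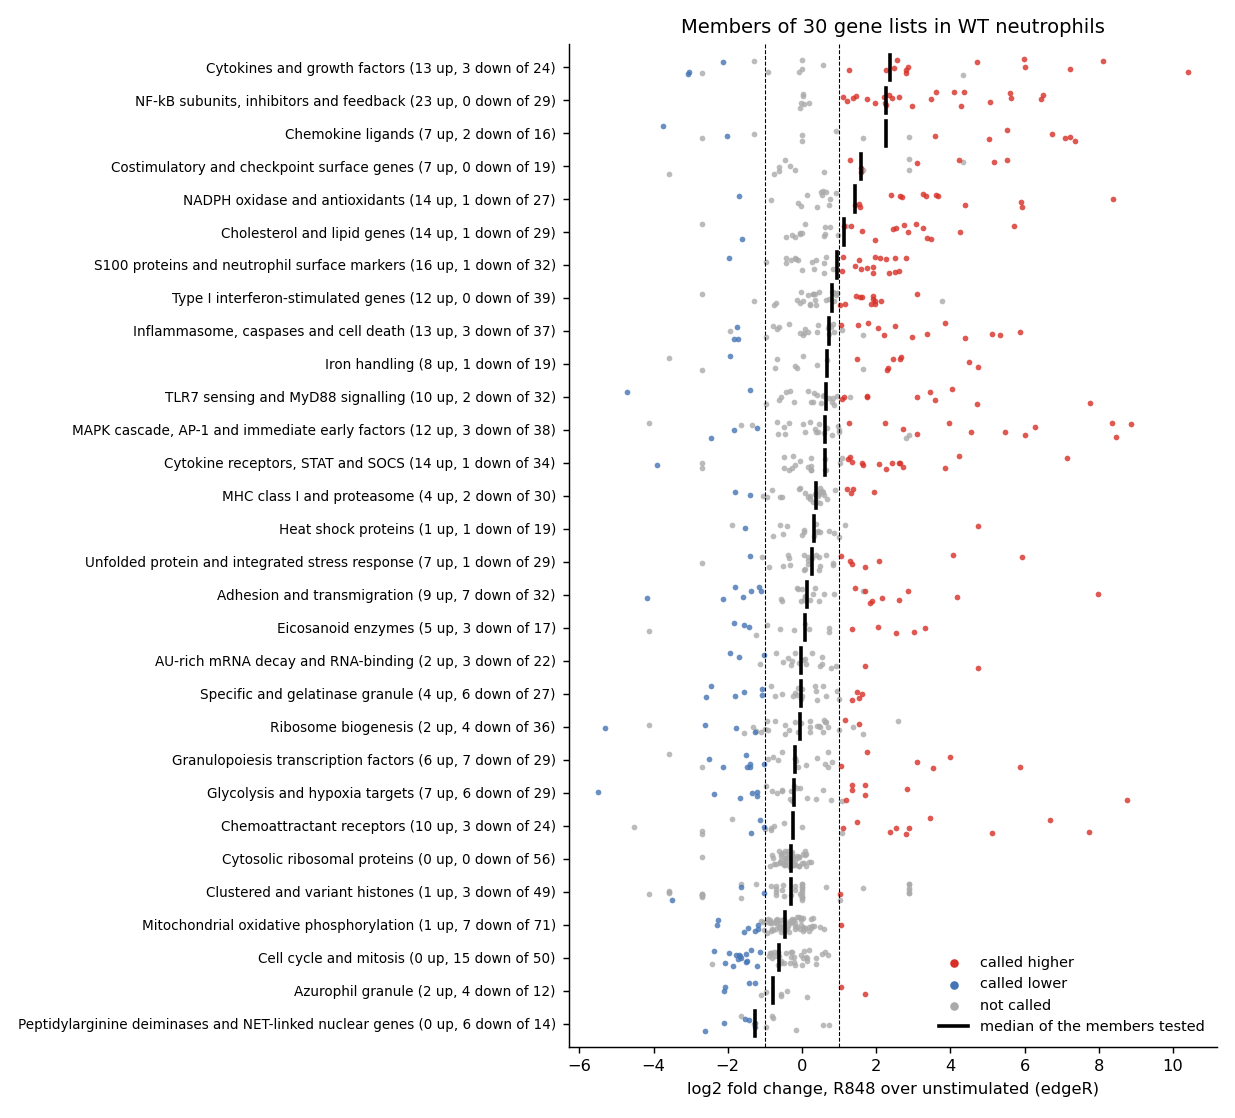
log2 fold change, R848 over unstimulated, of the members tested in each of 30 gene lists, with members called higher in red, called lower in blue and not called in grey, and a black bar at each list's median; the label gives how many rose and fell of those tested. Lists of cytokines, NF-kB genes, chemokines, costimulatory genes, antioxidants and cholesterol genes lie at the top with fitted medians above 1.1, and cell cycle, azurophil granule and NET-linked genes lie at the bottom, while with genes at 0 in 1 group placed at their bound the medians are 0.93 for chemokines and 0.00 for costimulatory genes.

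The genes that rose were more compact than those that fell. Among genes with at least 10 counts on average and a position in GENCODE, the 676 that rose had a median of 9 exon blocks and a median span of 21.3 kb, and the 742 that fell had 12 blocks and 28.7 kb, against 11 blocks and 25.6 kb over all 5683. This is a description of the genes called at this depth.

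Finally, the response of Padi4 KO neutrophils to the same treatment differed from that of WT for 577 of 12254 genes (4.71%), by edgeR's test of the difference of response at an adjusted p below 0.1. DESeq2 called 125, RLE factors gave 393 and library size alone 425. Of the 182 genes chosen here by rule, 57 differed, and for 26 of these the difference also passed with the other scalings and with DESeq2. Most of the 182 were chosen for their WT change, which the difference contains. The choice therefore favours a smaller change in Padi4 KO, and 57 of 182 cannot be compared with the 4.71% of all genes. Cxcl2 moved by 3.58 on the log2 scale in WT cells and by 1.61 in Padi4 KO cells. Irg1 moved by 8.76 in WT cells and by 5.21 in Padi4 KO cells.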

How the data were processed

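The authors trimmed adaptors from the paired-end MiSeq reads of TruSeq RNA v2 libraries with cutadapt 1.16, after FastQC 0.11.7, removed low-quality reads with the FASTX toolkit, aligned them with STAR 2.5.3a to mm10, and counted reads per gene with HTSeq 0.6.1p1, as the study's methods and the submitters' processing notes state. The deposited values are these raw counts. Neither the annotation used for counting nor its strand option is given in the sources used here, and 59 of the 182 genes chosen by rule share exon bases with another annotated gene, where reads cannot be told apart. Il1b (antisense Il1bos), Icam1 (antisense Gm47079) and Nfkb2 (Psd) are among these. The 2 libraries of each of 4 groups were grouped by their labels. The summary lines of the table, for reads outside genes or of ambiguous origin, were left out.

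Genes with 1 or more counts in 2 or more libraries were fitted in edgeR 4.0.16 (R 4.3.3) with TMM factors, 1 mean per group and a robust quasi-likelihood fit over all 8 libraries. Calls required a Benjamini-Hochberg adjusted p below 0.1 and a change over 2-fold. Standard errors were computed from the fitted change and its F statistic. CPM in gene sentences are TMM scaled. For a gene at 0 in a group, the fold was bounded from 3 counts over that group, and for 1 to 3 counts an exact interval of the count ratio (95%) was given. Sequences were taken from RefSeq promoters and gene positions from GENCODE vM21, both on GRCm38. On simulated counts for the WT response (12254 genes, 100 changed per fold size), edgeR called 79 of 100 genes changed by 1.5 on the log2 scale and 96 of 100 changed by 3, with 6 false calls among 181.

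The gene lists, markers and tests were chosen with earlier results of these data known. Genes were named by rule: the largest rises and falls, the largest gains and losses of CPM, up to 4 called genes of each list and direction with the smallest p among those averaging 10 counts or more, Tlr7, Padi4, the neutrophil markers, and the genes at 0 in 1 group with the highest counts in the other. Irak2, Tlr9, Relb, Nfkbia, Dusp5, Il12a, Csf1, Itga5, Itga4, Adam17, Pim2, Nfe2l2, Hmox1, Ptgs2, Bcl2l11, Mcl1 and genes given only with a log2 fold change were named after their values were seen. Some genes that the rule names are not reported here. Alternatives were DESeq2 1.42.0, other filters, RLE factors, library size alone, the 4 WT libraries alone, a replicate block, glmTreat, thinning to 562446 counts, a stricter adjusted p and leaving out each library. Same-numbered libraries of the 2 WT groups did not deviate together (correlation 0.000236 over 5704 genes, and 0.0175 in Padi4 KO), so the numbers were not used as pairs.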

Additional observations from a re-analysis of the deposited data

Results flagged for a closer look

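The response to R848 differed between Padi4 KO and WT neutrophils for 26 of the 182 genes chosen by rule, by a test of the difference itself that passed an adjusted p of 0.1 in edgeR with each scaling and in DESeq2. Each value below is on the log2 scale, the change in KO cells less the WT change, with TMM factors, and the genes were chosen for their WT response. The difference contains that WT response, so the choice itself favours smaller changes in KO cells. The change was smaller in KO for 23 of the 26, and the part of the choice in this was not tested.

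Among genes of sensing and inflammation that rose in WT, the differences were -2.07 for Cd14, -1.90 for Tlr2, -0.69 for Clec4e, -2.51 for Il1b, -1.97 for Cxcl2, -1.13 for Il10ra, -0.77 for Lilrb4a and -0.86 for Pim1. Among genes of metabolism and stress that rose in WT, they were -3.55 for Irg1, -0.45 for Fth1, -2.90 for Cyp51, -1.23 for Slc3a2, -0.97 for Slc16a3, -0.81 for Hif1a and -0.67 for Atf4. Srgn, of the granule genes, had a difference of -1.09. Among regulators of transcription and of RNA decay that rose in WT, they were -1.46 for Ets2, -0.77 for Cebpb, -1.46 for Zfp36l1 and -0.42 for Btg2. Chil1 rose more in Padi4 KO, with a difference of 0.62.

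Fos and Dusp1, which fell in WT, fell further in Padi4 KO, with differences of -4.11 and -0.79. Egr1 is not among the 26, but its difference passed in edgeR with TMM factors. It rose in WT, by 2.74, and went the other way in Padi4 KO, at -2.58, a difference of -5.32. Ddx21, of the ribosome biogenesis list and also outside the 26, likewise rose in WT and was lower after R848 in Padi4 KO. The falls of Gpi1, Klf13 and Mcm6 were smaller in Padi4 KO, with differences of 0.81, 1.161 and 1.51. The Padi4 KO libraries held more counts than the WT ones (716440 to 1177972 against 562446 to 668857 on genes), and the part of depth in these differences was not tested.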

How the results depend on the processing

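The count of genes called lower was 1328 with TMM factors, 719 with DESeq2 and 2106 with library size alone. DESeq2 called 811 genes higher, of which 752 were among the 879, and all of its 719 lower genes were among the 1328. A test against the 2-fold limit itself (glmTreat) called 509 higher and 448 lower. With the replicate block the counts were 846 higher and 1239 lower, and 564 for the difference between Padi4 KO and WT. The difference count was 577 with edgeR and 125 with DESeq2. Leaving out each WT library in turn gave 823 to 992 genes higher and 901 to 1158 lower. Thinning every library to the smallest gave 973 higher and 893 lower.

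Of the 182 genes chosen by rule, none of the 172 called changed sign under the 14 settings run on them, and 36 lost a call under at least 1 setting. Tlr7 and Ltf were called lower under 4 settings and 1 setting, respectively. At the depth of 562446 to 668857 counts on genes, the shares called were smallest among low genes. Of the genes averaging under 3 counts, 1.34% were called higher and 3.83% lower.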

Other observations

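Genes outside the lists, chosen after their values were seen, also moved. Marcksl1, a regulator of the actin cytoskeleton, had 63 and 63 counts in the unstimulated libraries and 1334 and 1356 after R848, a log2 fold change of 4.63 (SE 0.11). Abcc1, an exporter of leukotriene C4 and glutathione conjugates, had 11 and 11 counts and then 443 and 526 (5.66, SE 0.18). Nr4a1, an orphan nuclear receptor, had 12 and 7 counts and then 352 and 453 (5.61, SE 0.19). The metabolite receptors Hcar2 and Gpr84 had 26 and 9 counts and 19 and 17 counts without stimulation, and 338 and 318 and 223 and 301 after R848. Mpeg1, a pore-forming protein of phagocytes, had 366 and 299 counts and then 1988 and 2049 (2.82, SE 0.08). Mefv, which encodes pyrin, had 34 and 25 counts and then 256 and 284 (3.41, SE 0.16). C3, the central complement component, had 1254 and 1065 counts and then 3440 and 3910 (1.88, SE 0.07).

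Tsc22d3, Fkbp5 and Per1, known as genes that glucocorticoids induce, were lower after R848. Tsc22d3 (GILZ) had 239 and 235 counts in the unstimulated libraries and 17 and 13 after R848, a log2 fold change of -3.76 (SE 0.20). Fkbp5, a chaperone of steroid receptors, had 242 and 235 counts and then 37 and 45 (-2.32, SE 0.16). Per1, a clock gene, had 97 and 103 counts and then 17 and 14 (-2.47, SE 0.24). The groups did not overlap for any of these genes, and they were picked for their change, so their values are a description. No list of glucocorticoid-induced genes was examined, and the others of that class are not described here.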
